A study of Homo sapiens with 6 samples.

Results

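The vacuolar ATPase (V-ATPase), the cathepsins and a set of lysosome membrane, regulator and autophagy genes were followed in HSC-3 cells that overexpress IRF9. HSC-3 is an established line of human oral squamous cell carcinoma. The genes were 52 of the 60612 in the deposited tables, all protein-coding. A name beginning with ATP6V or ATP6AP brought in 27 of them, and a name made of CTS and 1 further letter brought in 15. The other 10 were listed by name: LAMP1, LAMP2, LAMP3, SCARB2, MCOLN1, TFEB, TFE3, GABARAPL1, SQSTM1 and MAP1LC3B. The set as a whole was proposed with the results of this same comparison known, and the 10 listed names were spelled out for it, so those 10 are described with no test. For the 42 genes found by the name patterns, which use no measured value, the p-values come from a fit over all genes, and no count of them is read as evidence about the set.

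The study compared 2 groups of 3 RNA sequencing libraries. One was made from HSC-3 cells labelled as overexpressing IRF9, and the other from HSC-3 cells titled kongbai, with no genotype in their labels, which the design text calls wild type. The sources used here give neither the vector, nor the clonality of the overexpressing cells, nor any empty-vector treatment of the controls. No label says that the libraries of a group came from separate cultures, so the spread behind the p-values is that of the libraries and could be technical. Levels of 1 gene between libraries are given in CPM, counts relative to the TMM-scaled library size, and levels between genes in FPKM, which also divides by gene length (the unit was read from the values, since the table names none). Means are given ± SD over the 3 libraries of a group.

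IRF9 is the DNA-binding part of the interferon-activated complex ISGF3. The V-ATPase is the proton pump that acidifies lysosomes, endosomes and secretory vesicles. Its V1 sector, on the cytosolic face, splits ATP, and its V0 sector, in the membrane, carries the protons. Cathepsins are the proteases that work in the acid lumen, and most are made as inactive precursors that mature there. LAMP proteins coat the inner face of the lysosome membrane, and TFEB and TFE3 are transcription factors that bind the promoters of many lysosome genes.

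IRF9 had 435, 423 and 119.7 CPM in the overexpressing libraries, against 27.6, 25.1 and 44.6 CPM in the control libraries. The groups did not overlap, and the log2 fold change was 3.35 (SE 0.41, adjusted p = 4.74e-05, edgeR's quasi-likelihood test with Benjamini-Hochberg adjustment). The overexpressing library with 119.7 CPM of IRF9 was the lowest of its group. There AL136295.5, a gene annotated over IRF9 on the same strand, had 421 CPM. AL136295.5 had 112 and 116 CPM in the other overexpressing libraries, against 95.1, 91.9 and 74.5 CPM in the control libraries. Its log2 fold change was 1.31 (SE 0.41). In each group, the library whose IRF9 level stood apart had AL136295.5 apart in the opposite direction. How reads were divided between these overlapping genes was not tested. The fold change and uneven levels of IRF9 therefore hold for its own entry, not for both genes together. Total counts were 69010768 to 85156099 in the overexpressing libraries, against 61645349 to 77257645 in the control libraries. The squamous epithelial markers were present in all libraries, but their summed level was 10968 to 11534 CPM in overexpressing libraries, against 18936 to 19567 CPM in control libraries, with 6 of 8 lower (KRT5 -1.16, KRT6A -0.95 on the log2 scale) and EPCAM higher. Of 8 macrophage and leukocyte markers, CD163, AIF1 and TYROBP were at 0 in every library, 5 were under 1 CPM, and the list summed to 93.7 to 101 CPM in overexpressing libraries, against 103 to 104 CPM in control libraries. CD68 made up most of that sum. Of 6 osteoclast markers, OCSTAMP and DCSTAMP were at 0 and 5 were under 1 CPM. That list summed to 38.3 to 43.3 CPM in overexpressing libraries, against 56.9 to 60.2 CPM in control libraries, nearly all of it ACP5, a lysosomal acid phosphatase. The fibroblast list summed to 47.5 to 51.9 CPM in overexpressing libraries, against 75.9 to 80.4 CPM in control libraries, with LUM lower and PDGFRB higher. The part of these marker differences in the results that follow was not tested. In bulk RNA, fewer cells with a transcript and less of it per cell cannot be told apart.

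Of the 42 genes found by the name patterns, 38 passed the filter on low counts. ATP6V1G3 and CTSG had 0 counts in every library, CTSE had counts in 1 library of each group, and CTSW had counts in 1 overexpressing library. Among the 38, 6 rose and 15 fell at an adjusted p under 0.05 (edgeR, all 19034 genes tested), and 17 were not called. Over all tested genes, 37.4% were called, 19.2% higher and 18.2% lower. The median log2 fold change of the 38 was -0.13, beside 0.005 over all tested genes. The 3 overexpressing libraries lay apart from the 3 control libraries for 6 of the 38 genes on the higher side and 18 on the lower side, where 48.6% of all tested genes were apart in either direction, 25.0% higher and 23.7% lower. Most differences were small. A call with a log2 fold change of at least 0.25 in size was reached by 13 of the 38 genes and by 28.3% of all tested genes, and a 2-fold call by ATP6V0D2 alone and by 5.73% of all tested genes.

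**Figure D1:**
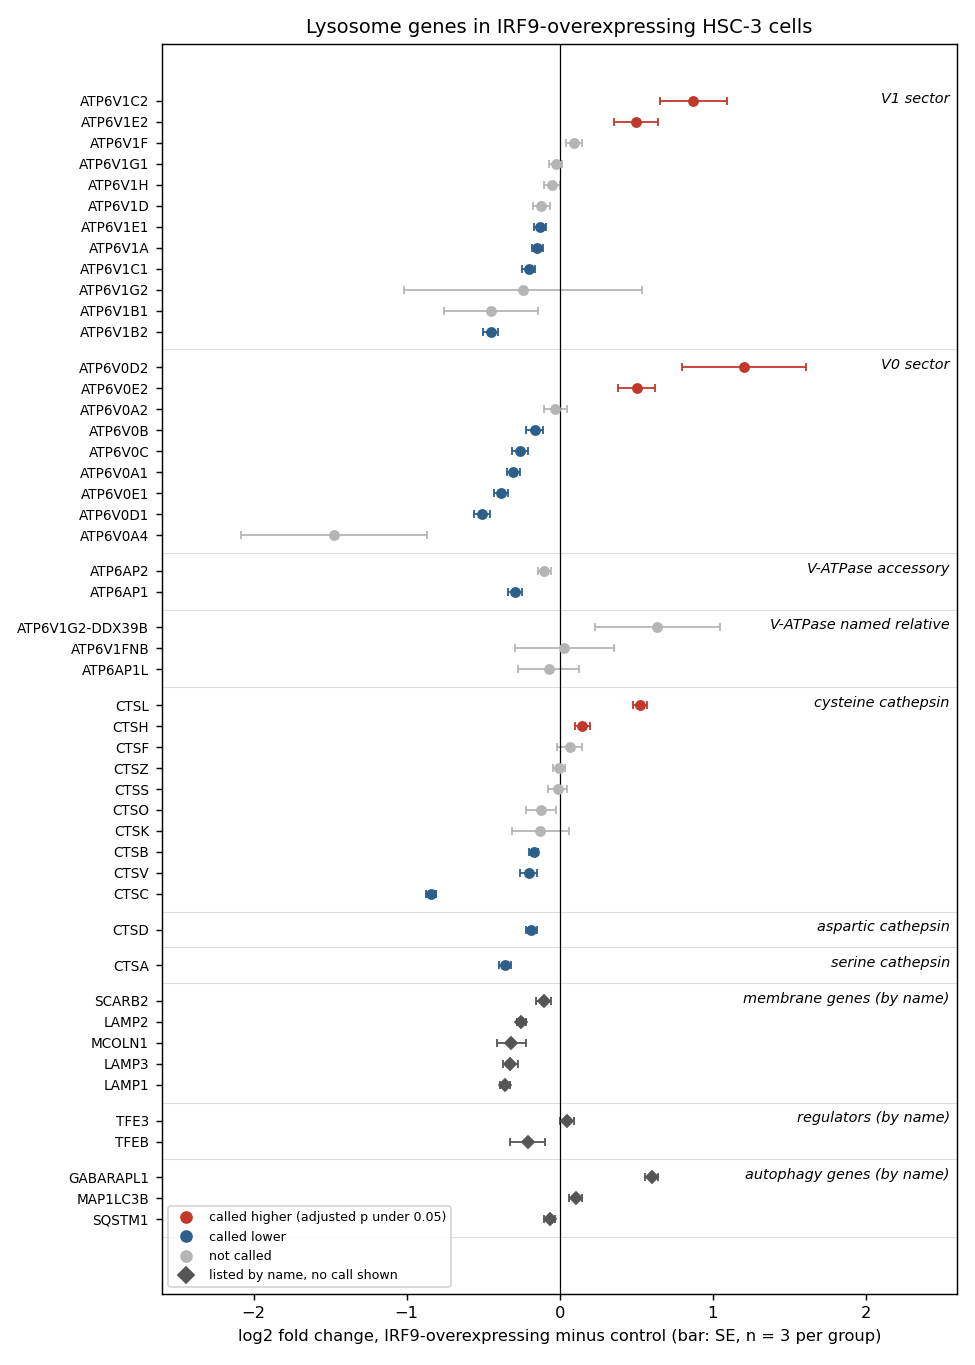
Log2 fold changes (x axis, overexpressing minus control) of the 48 genes tested, grouped by role, with bars of 1 SE (n = 3 libraries per group). Circles are genes found by a name pattern, red where called higher, blue where called lower and grey where not called. Diamonds are the 10 genes listed by name, for which no call is shown. CTSC lies farthest left among the called genes, at -0.84, and the called genes on the right of the V1 and V0 blocks are ATP6V1C2, ATP6V1E2, ATP6V0D2 and ATP6V0E2.

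The promoters of these genes are shown because many lysosome genes carry the site to which TFEB and TFE3 bind, whose core is TCACGTG. RefSeq promoters on GRCh38.p14, from 250 bases before to 50 after each start, were matched for 36 of the 52 genes. The other 16 were not searched: ATP6AP1L, ATP6V0D2, ATP6V0E1, ATP6V1A, ATP6V1B2, ATP6V1C1, ATP6V1E2, ATP6V1FNB, ATP6V1H, CTSB, CTSK, CTSO, CTSS, CTSW, LAMP2 and LAMP3. On either strand TCACGTG stood in 9 of the 36 (25%), those of ATP6V0B, ATP6V0D1, ATP6V0E2, ATP6V1G1, CTSA, CTSD, CTSF, LAMP1 and MCOLN1, beside 891 of 15149 protein-coding genes in the table (5.88%), or 3.71% of all 35116 single promoters. The shorter E-box CACGTG, which lies inside TCACGTG, was found in the same 9 genes, beside 11% of protein-coding genes and 7.26% of all single promoters. The core of the interferon-stimulated response element (ISRE), to which ISGF3 binds, matched 0 of the 36, beside 4.22% of protein-coding genes and 3.57% of all single promoters. A match is only a match of letters, and no match says only that these letters are not in this window. Below are the 75 bases before the start of the most changed V0 genes with a match and of CTSA and MCOLN1, and for LAMP1 the stretch with the most matches. They read 5′ to 3′ on the strand of the gene, with each match to TCACGTG or its reverse complement in capitals.
ATP6V0D1, chr16:67481158-67481232, minus strand: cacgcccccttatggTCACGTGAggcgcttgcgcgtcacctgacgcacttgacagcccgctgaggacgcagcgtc
ATP6V0E2, chr7:149872889-149872963, plus strand: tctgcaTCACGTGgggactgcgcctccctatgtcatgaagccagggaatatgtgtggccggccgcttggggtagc
CTSA, chr20:45891260-45891334, plus strand: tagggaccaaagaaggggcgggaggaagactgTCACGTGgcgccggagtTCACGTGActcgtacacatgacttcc
LAMP1, chr13:113297039-113297113, plus strand: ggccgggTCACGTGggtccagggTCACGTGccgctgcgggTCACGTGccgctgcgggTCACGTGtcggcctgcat
MCOLN1, chr19:7522549-7522623, plus strand: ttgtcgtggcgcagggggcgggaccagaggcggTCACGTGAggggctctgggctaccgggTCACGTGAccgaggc
The 9 genes with the motif did not share a direction. ATP6V0B, ATP6V0D1, CTSA and CTSD fell, ATP6V0E2 rose, ATP6V1G1 and CTSF were not called, and LAMP1 and MCOLN1 had every overexpressing library below every control library. The LAMP1 stretch, 126 to 200 bases before the start, holds 4 matches. CTSA and MCOLN1 hold 2 each in the stretches shown, and ATP6V0D1 and ATP6V0E2 hold 1 each.

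Most genes of the V1 sector differed little. Of 12 tested V1 genes, 4 fell, 2 rose and 6 were not called (50% called, beside 37.4% of all tested genes), with a median log2 fold change of -0.12. ATP6V1B2, the B subunit of the ATP-splitting ring in most tissues, had 74.0, 69.2 and 66.9 CPM in overexpressing libraries, against 94.6, 95.3 and 97.5 CPM in control libraries. The libraries of each group kept close together and the groups were well apart, with a log2 fold change of -0.45 (SE 0.05, adjusted p = 1.42e-05, edgeR). ATP6V1A, the catalytic A subunit that alternates with B in the same ring, had 182, 182 and 179.9 CPM in overexpressing libraries, against 204, 201 and 196 CPM in control libraries, a log2 fold change of -0.15 (SE 0.04, adjusted p = 0.00612, edgeR). The fold changes of these ring partners were not tested against each other. Per length, A stood at 34.7 FPKM beside 19.7 FPKM for B in overexpressing cells, and at 36.6 FPKM beside 25.7 FPKM in control cells.

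ATP6V1C1, the subunit that leaves the enzyme when V1 and V0 come apart, fell to 82.8, 81.3 and 84.1 CPM in overexpressing libraries, against 94.9, 92.7 and 98.2 CPM in control libraries (log2 fold change -0.20, adjusted p = 0.00249, edgeR). ATP6V1E1, of the outer stalks, fell to 146, 139 and 141 CPM in overexpressing libraries, against 156, 157 and 153 CPM in control libraries (log2 fold change -0.13, adjusted p = 0.0192, edgeR). Among the called V-ATPase and cathepsin genes, ATP6V1E1 had the smallest log2 fold change in size. ATP6V1G1, its partner in the stalk, overlapped between groups at 162, 153 and 152 CPM in overexpressing libraries, against 163, 153 and 159.8 CPM in control libraries. The rotor subunits were not called either: ATP6V1D averaged 54.4 ± 2.39 CPM in overexpressing libraries and 59.2 ± 2.98 CPM in control libraries, and ATP6V1F averaged 58.8 ± 3.29 CPM in overexpressing libraries and 55.2 ± 1.89 CPM in control libraries (SD, n = 3 each). For ATP6V1D the groups narrowly did not overlap, with at most 56.8 CPM in overexpressing libraries and at least 57.1 CPM in control libraries. ATP6V1H, which bridges V1 and the a subunit, averaged 54.6 ± 2.94 CPM in overexpressing libraries and 56.6 ± 1.04 CPM in control libraries (SD, n = 3 each). Summed over the sector, V1 genes reached 388 ± 11.8 FPKM in overexpressing libraries and 389 ± 0.48 FPKM in control libraries (SD, n = 3 each), and the groups overlapped. The FPKM scale sat slightly higher for the overexpressing libraries than the CPM scale, with a median log2 difference over all genes of 0.03 to 0.06, and on it ATP6V1D, ATP6V1G1 and ATP6V1H differed in the other direction, without a call. On the FPKM scale ATP6V1F was called higher at 0.15 (adjusted p = 0.034, limma on log2(FPKM + 1)), and the calls of ATP6V1A, ATP6V1C1 and ATP6V1E1 were lost (adjusted p = 0.111 for ATP6V1A, 0.0659 for ATP6V1C1 and 0.237 for ATP6V1E1, same fit). The call of ATP6V1E1 was also lost without the second or the third overexpressing, or the first or the second control library (adjusted p 0.0632 to 0.0835, edgeR).

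Among the V0 genes found by the name patterns, the abundant ones were lower throughout. Of 9 tested V0 genes, 5 fell, 2 rose and 2 were not called (77.8% called, beside 37.4% of all tested genes), with a median log2 fold change of -0.26. The 5 that fell were the 5 of at least 10 FPKM in a group. The sum over these V0 genes, which leaves out V-ATPase genes with other names, was 310, 285 and 281 FPKM in overexpressing libraries. In control libraries it was 350.1, 344 and 339 FPKM. All 3 overexpressing sums lay below the lowest control sum. The level of 10 FPKM was chosen after the values were seen, so the contrast with V1 and between abundant and rare subunits is a description with no test.

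ATP6V0D1, the d subunit that couples the turning V1 axle to the membrane ring, changed most among the abundant subunits. It had 72.5, 64.7 and 64.7 CPM in overexpressing libraries, against 98.0, 95.5 and 93.9 CPM in control libraries. The groups were far apart compared with their spread, at a log2 fold change of -0.51 (SE 0.05, adjusted p = 1.1e-05, edgeR). ATP6V0E1, the small e subunit needed for assembly in yeast, had 109, 98.7 and 98.4 CPM in overexpressing libraries, against 133, 132 and 132 CPM in control libraries. The log2 fold change was -0.38 (SE 0.05, adjusted p = 4.31e-05, edgeR), again with no overlap. ATP6V0C, the c subunit of the proton-carrying ring and the most abundant V0 transcript at 111 FPKM in overexpressing cells and 127 FPKM in control cells, had 148, 131 and 138 CPM in overexpressing libraries, against 176, 164 and 159.6 CPM in control libraries. Its log2 fold change was -0.26 (SE 0.05, adjusted p = 0.00164, edgeR), and the highest overexpressing library stayed below the lowest control library. ATP6V0B, the c'' subunit of the same ring, lay at 77.0, 68.7 and 65.6 CPM in overexpressing libraries, against 79.5, 78.7 and 78.5 CPM in control libraries, and its call (log2 fold change -0.16, adjusted p = 0.0419, edgeR) was lost when any 1 library other than the first overexpressing one was left out (adjusted p 0.0947 to 0.17). Processed copies of ATP6V0C, ATP6V0E1, ATP6V1G1 and ATP6V1E1 elsewhere in the genome held at most 0.11% as many counts as the gene itself.

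The a subunit carries the proton path and steers the pump to its membrane. ATP6V0A1 had 59.8, 59.7 and 59.9 CPM in overexpressing libraries, against 73.9, 73.4 and 74.0 CPM in control libraries, with little spread in either group. Its log2 fold change was -0.30 (SE 0.04, adjusted p = 0.000132, edgeR). ATP6V0A2, the isoform of the Golgi and endosomes, overlapped at 20.3, 22.9 and 21.0 CPM in overexpressing libraries, against 22.2, 20.2 and 23.1 CPM in control libraries. The most abundant a isoform in these cells carries another name, TCIRG1 (a3), the isoform best known from osteoclasts, and made up 69.0 ± 1.04% of a-subunit FPKM in overexpressing libraries and 67.7 ± 1.11% in control libraries (SD, n = 3 each). TCIRG1 averaged 95.2 ± 4.26 CPM in overexpressing libraries and 110.6 ± 3.42 CPM in control libraries and fell (log2 fold change -0.22, adjusted p = 0.00278, edgeR). Its share and that of ATP6V0A1 overlapped between groups. The share of ATP6V0A2 did not overlap, at 6.14 ± 0.292% in overexpressing libraries and 5.36 ± 0.206% in control libraries (SD, n = 3 each). ATP6V0A4, the kidney and inner ear isoform, had 0.23, 0 and 0.37 CPM in overexpressing libraries, against 0.811, 0.522 and 0.38 CPM in control libraries, and was not called (log2 fold change -1.48, SE 0.61, adjusted p = 0.0767, edgeR).

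**Figure D2:**
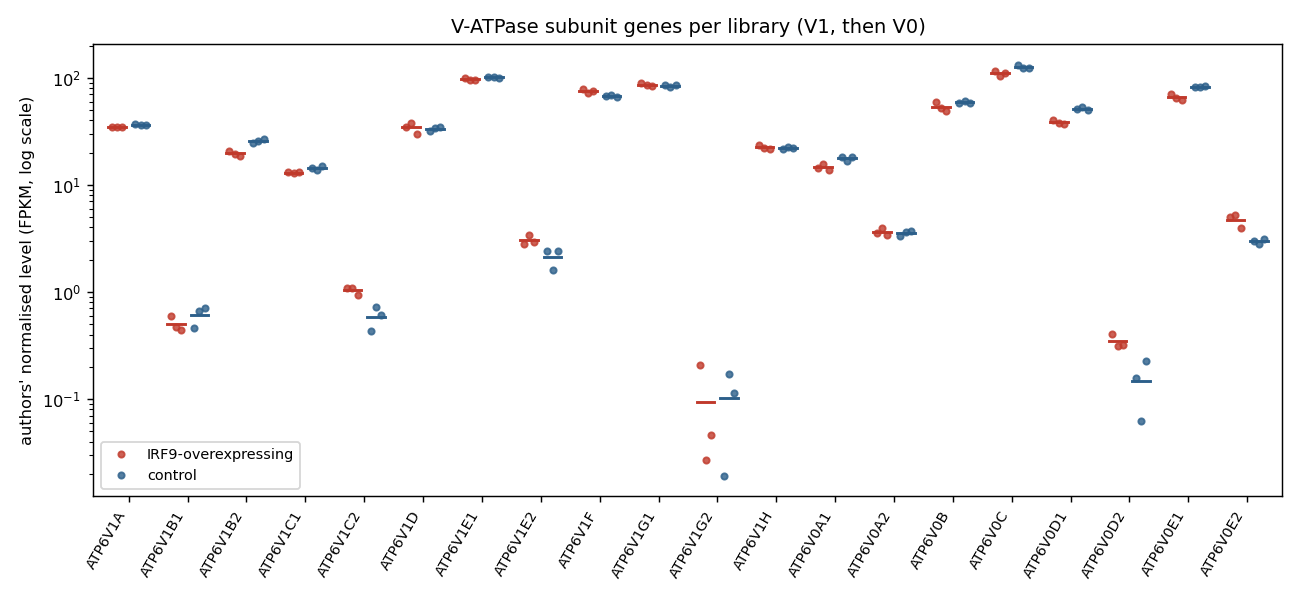
FPKM (log axis) of V-ATPase sector genes in each library (points) with the group mean (lines), overexpressing in red to the left of control in blue. ATP6V1G3 and ATP6V0A4, which have a library at 0, are not drawn. All red points lie below all blue points for ATP6V0A1, ATP6V0C, ATP6V0D1 and ATP6V0E1, those of ATP6V0B overlap on this scale, and the rarer ATP6V1C2, ATP6V1E2, ATP6V0D2 and ATP6V0E2 lie higher in red.

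Among the 8 tested sector genes under 10 FPKM, 4 rose and 0 fell at an adjusted p under 0.05 (edgeR; DESeq2 also called 0 lower, and ATP6V0A4 alone had an unadjusted p under 0.05 on that side), beside 19.2% higher and 18.2% lower of all tested genes. Each of the 4 is the rarer isoform of a subunit whose abundant isoform fell, although the calls of ATP6V1C1 and ATP6V1E1 were lost on log2(FPKM + 1). Subunits B and a did not share this pattern. Their abundant isoforms fell too, but ATP6V1B1 (log2 fold change -0.45, adjusted p = 0.277, edgeR) and ATP6V0A2 (-0.03, adjusted p = 0.798, edgeR) were not called. ATP6V1C2, a C isoform known from epithelia of kidney and lung, had 3.68, 3.9 and 2.65 CPM in overexpressing libraries, against 1.63, 2.25 and 1.65 CPM in control libraries, a log2 fold change of 0.87 (SE 0.22, adjusted p = 0.00754, edgeR). ATP6V0E2 had 11.4, 11 and 8.75 CPM in overexpressing libraries, against 7.79, 7.13 and 7.01 CPM in control libraries, a log2 fold change of 0.50 (SE 0.12, adjusted p = 0.00594, edgeR). ATP6V1E2, the E isoform first found in testis, had 5.12, 5.42 and 4.97 CPM in overexpressing libraries, against 3.67, 3.16 and 4.22 CPM in control libraries, a log2 fold change of 0.50 (SE 0.15, adjusted p = 0.0172, edgeR). In each of the 3 the lowest overexpressing library stood above the highest control library. ATP6V0D2, the d isoform of osteoclasts and kidney, was rare, with 33, 13 and 40 counts in the control libraries. It had 1.13, 0.817 and 0.888 CPM in overexpressing libraries, against 0.439, 0.179 and 0.662 CPM in control libraries, with a log2 fold change of 1.21 (SE 0.41, adjusted p = 0.0342, edgeR).

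Each of these minor isoforms remained a small part of its subunit. ATP6V0E2 made up 6.69 ± 0.807% of e-subunit FPKM in overexpressing libraries and 3.49 ± 0.171% in control libraries, and ATP6V1C2 made up 7.39 ± 0.561% of C-subunit FPKM in overexpressing libraries and 3.95 ± 1.02% in control libraries (SD, n = 3 each). ATP6V1E2 held 3.05 ± 0.353% of E in overexpressing libraries and 2.08 ± 0.46% in control libraries, and ATP6V0D2 held 0.894 ± 0.0966% of d in overexpressing libraries and 0.289 ± 0.165% in control libraries (SD, n = 3 each). For these 4 the shares of the groups did not overlap. The share of ATP6V1B1, the kidney isoform of B, did overlap, at 2.47 ± 0.254% in overexpressing libraries and 2.32 ± 0.44% in control libraries (SD, n = 3 each). The call of ATP6V1E2 was lost without the second control library (0.40, adjusted p = 0.0791, edgeR), and that of ATP6V0D2 without the first or the third overexpressing, or the first or the second control library (0.82 to 1.26, adjusted p 0.0614 to 0.15, edgeR). Use of strand in counting is not given: ATP6V1C2 lies over PDIA6 and ATP6V1E2 over RHOQ on the opposite strand, which averaged 408 CPM and 29.4 CPM in overexpressing libraries, against 474 CPM and 32.6 CPM in control libraries, and ATP6V0E2 lies over ATP6V0E2-AS1, at 1.62 CPM in overexpressing libraries, against 0.403 CPM in control libraries.

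**Figure D3:**
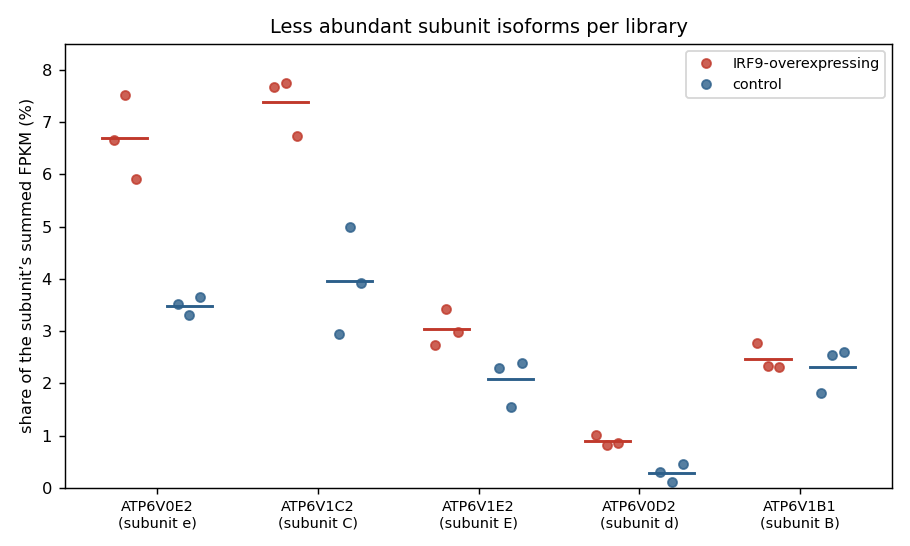
Share of the summed FPKM of a subunit's isoforms held by the rarer isoform (y axis, %), in each library (points) with the group mean (lines), overexpressing in red to the left of control in blue. The groups are apart for subunits e, C, E and d, and overlap for subunit B, where ATP6V1B1 averaged 2.47% in overexpressing libraries and 2.32% in control libraries.

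The other V-ATPase genes were accessory proteins and relatives by name. ATP6AP1, which takes part in building V0, had 87.0, 86.1 and 79.9 CPM in overexpressing libraries, against 99.7, 105 and 105 CPM in control libraries, and fell by 0.29 on the log2 scale (SE 0.05, adjusted p = 0.0004, edgeR). ATP6AP2, the (pro)renin receptor, averaged 137 ± 2.97 CPM in overexpressing libraries and 147 ± 4.97 CPM in control libraries (SD, n = 3 each) and was not called (log2 fold change -0.10, adjusted p = 0.0729, edgeR), although its groups did not overlap. Of the remaining 3, ATP6AP1L, ATP6V1FNB and the readthrough gene ATP6V1G2-DDX39B, none was called and all overlapped between groups at under 3 CPM. On log2(FPKM + 1) the call of ATP6AP1 was lost (-0.15, adjusted p = 0.538, limma).

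V-ATPase genes whose names fall outside the patterns were read from a fixed list, 13 of which were tested. This list and the fixed lists below were chosen with earlier results of these data known. Their counts are therefore description, and the p-values of their genes come from the fit over all genes. Of these 5 fell and 1 rose, 46.2% called beside 37.4% of all tested genes, with a median log2 fold change of -0.04. DMXL1, of the complex that helps V1 and V0 reassemble, averaged 42.4 ± 5.7 CPM in overexpressing libraries and 58.3 ± 4.45 CPM in control libraries (log2 fold change -0.46, adjusted p = 0.00137, edgeR). CCDC115, a V0 assembly factor, averaged 28.5 ± 0.902 CPM in overexpressing libraries and 34.6 ± 0.573 CPM in control libraries (log2 fold change -0.27, adjusted p = 0.00194, edgeR). OXR1, whose yeast relative takes the pump apart, was the one that rose, at 62.0 ± 1.95 CPM in overexpressing libraries and 47.7 ± 0.9 CPM in control libraries (log2 fold change 0.38, adjusted p = 6.36e-05, edgeR). RNASEK, an abundant gene of this list, stood at 96.9 ± 10.7 FPKM in overexpressing libraries and 100.6 ± 14.8 FPKM in control libraries. It was not called (log2 fold change -0.16, adjusted p = 0.233, edgeR), and its groups overlapped.

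Cathepsin genes were called in both directions. Of 12 tested, 5 fell, 2 rose and 5 were not called (58.3% called, beside 37.4% of all tested genes), with a median log2 fold change of -0.13. CTSC (cathepsin C, chr11:88293592-88337761, minus strand, GRCh38), the dipeptidyl peptidase that activates the serine proteases of neutrophils and mast cells, had 489, 466 and 458 CPM in overexpressing libraries, against 849, 845 and 838 CPM in control libraries. The log2 fold change was -0.84 (SE 0.03, adjusted p = 2.41e-09, edgeR), a level 0.558 times that of controls. No other tested cathepsin or V-ATPase gene had a smaller p. CTSL (cathepsin L, chr9:87726109-87731469, plus strand), a broad endopeptidase of the lysosome, went the other way, with 149, 142 and 142 CPM in overexpressing libraries, against 103, 95.4 and 102 CPM in control libraries. Its groups were clearly apart, at a log2 fold change of 0.52 (SE 0.04, adjusted p = 2.11e-06, edgeR), and its 6 pseudogenes in the table had 0 counts.

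CTSA (protective protein cathepsin A), a serine carboxypeptidase that also holds the sialidase NEU1 and beta-galactosidase in 1 complex, had 198, 188 and 189 CPM in overexpressing libraries, against 240.5, 246 and 252 CPM in control libraries. It fell by 0.36 on the log2 scale (SE 0.04, adjusted p = 1.44e-05, edgeR) with no overlap. PLTP, on the opposite strand over CTSA, rose, with means of 51.2 CPM in overexpressing libraries and 36.9 CPM in control libraries. CTSB and CTSD were the most abundant. CTSB, a cysteine protease with both endopeptidase and peptidyl-dipeptidase action, had 2202, 2121 and 2137 CPM in overexpressing libraries, against 2436, 2426 and 2408 CPM in control libraries (log2 fold change -0.17, adjusted p = 0.000402, edgeR). CTSD, the main aspartic protease of lysosomes, had 928, 844 and 877 CPM in overexpressing libraries, against 1004, 994 and 1012 CPM in control libraries (log2 fold change -0.18, adjusted p = 0.0016, edgeR). Both groups were apart for both genes, by a smaller factor than for CTSC, and the call of CTSB was lost on log2(FPKM + 1) (-0.13, adjusted p = 0.0987, limma).

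CTSV, a close relative of CTSL found in skin, thymus and cornea, averaged 30.0 ± 0.854 CPM in overexpressing libraries and 34.5 ± 0.728 CPM in control libraries (SD, n = 3 each) and fell by 0.20 on the log2 scale (adjusted p = 0.0125, edgeR), a call lost on log2(FPKM + 1) (-0.13, adjusted p = 0.116, limma). CTSH, an aminopeptidase, averaged 85.8 ± 3.6 CPM in overexpressing libraries and 77.5 ± 3.01 CPM in control libraries (SD, n = 3 each) and rose by 0.15 (adjusted p = 0.0294, edgeR). Both calls were lost without single libraries: CTSV without the third overexpressing or the second control library (adjusted p 0.0527 and 0.0555), and CTSH without the first or the third overexpressing, or the first or the second control library (adjusted p 0.0649 to 0.142). CTSF, CTSK, CTSO, CTSS and CTSZ were not called and overlapped between groups, with log2 fold changes of -0.13 to 0.07. Among them CTSZ was the most abundant, at 125, 123 and 122 CPM in overexpressing libraries, against 123, 123 and 125 CPM in control libraries. CTSK, the collagen-degrading cathepsin of osteoclasts, stayed under 4 CPM everywhere.

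Per length, the summed cathepsin level was 1549, 1488 and 1483 FPKM in overexpressing libraries, against 1707, 1679.9 and 1777 FPKM in control libraries, lower without overlap. The make-up of that sum differed as well. CTSC held 12.4 ± 0.231% of it in overexpressing libraries and 18.5 ± 0.539% in control libraries, and CTSL held 5.88 ± 0.0754% in overexpressing libraries and 3.43 ± 0.0459% in control libraries (SD, n = 3 each). In order of FPKM, CTSB, CTSD and CTSC led in both groups. In overexpressing cells CTSL at 88.5 FPKM and CTSA at 85.5 FPKM came next, with overlapping shares, and CTSZ followed at 71.5 FPKM. In control cells the order was CTSA at 105 FPKM, CTSZ at 68.6 FPKM and CTSL at 59.0 FPKM. CTSB held 42.0 ± 0.459% in overexpressing libraries and 40.2 ± 1.12% in control libraries (SD, n = 3 each). CTSD held 24.9 ± 0.588% in overexpressing libraries and 24.3 ± 0.444% in control libraries (SD, n = 3 each), with overlap.

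**Figure D4:**
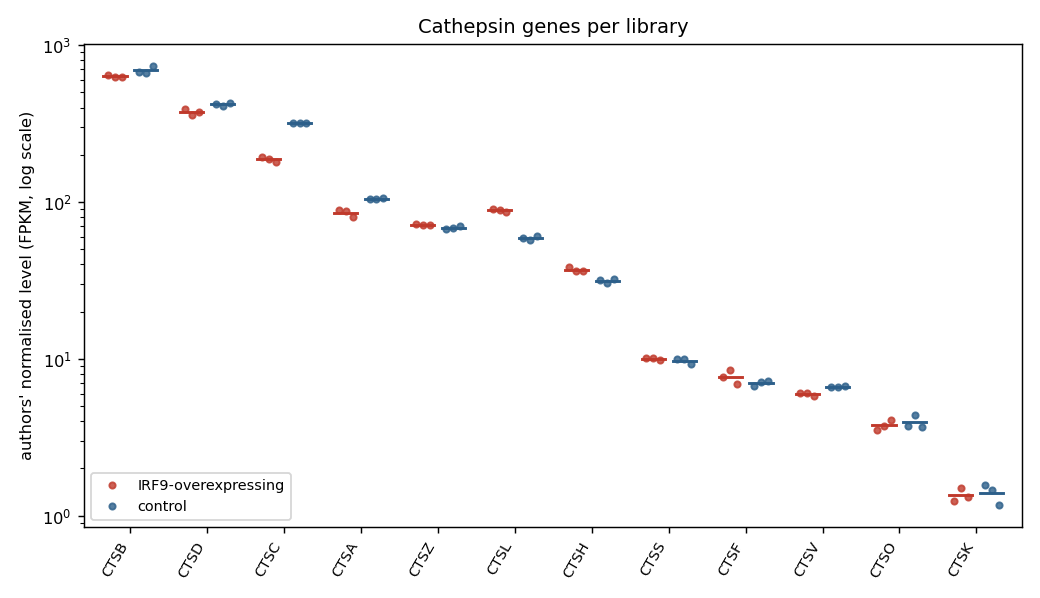
FPKM (log axis) of the cathepsin genes with a value above 0 in every library, in order of the control mean. Points are libraries and lines are group means, overexpressing in red to the left of control in blue. CTSC is lower and CTSL higher in red, and the points of CTSS, CTSO and CTSK overlap.

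Cathepsin inhibitors were read from a fixed list. Of 8 tested, 3 rose and 5 fell, so that 100% were called, beside 37.4% of all tested genes, with a median log2 fold change of -0.24. CSTB, the cytosolic inhibitor stefin B of CTSB, CTSL and CTSH, averaged 153 ± 10.2 CPM in overexpressing libraries and 257 ± 7.33 CPM in control libraries (log2 fold change -0.74, adjusted p = 2.14e-07, edgeR). SERPINB13, a serpin of squamous epithelium that inhibits CTSL and CTSK, averaged 73.1 ± 2.58 CPM in overexpressing libraries and 108 ± 5.29 CPM in control libraries (log2 fold change -0.56, adjusted p = 2.83e-06, edgeR). The squamous antigens SERPINB3 and SERPINB4, neighbouring near-identical genes whose reads the counting could split, rose by 0.37 and 0.14 on the log2 scale (adjusted p = 2.84e-05 and 0.0255, edgeR). Most of the squamous marker list was lower, whereas these inhibitors were called in both directions. The part of that marker difference in the inhibitor levels was not tested.

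The 5 lysosome membrane genes listed by name had log2 fold changes of -0.36 to -0.11, and for 4 of them every overexpressing library lay below every control library, as for 23.7% of all tested genes. LAMP1 (chr13:113297239-113323672, plus strand, GRCh38), with LAMP2 the main glycoprotein of the lysosome membrane, had 391, 383 and 384 CPM in overexpressing libraries, against 505, 499 and 482 CPM in control libraries, a log2 fold change of -0.36 (SE 0.03). LAMP2, which also serves chaperone-mediated autophagy, had 295, 300.0 and 299 CPM in overexpressing libraries, against 352, 355 and 357 CPM in control libraries, a log2 fold change of -0.25 (SE 0.03). In both genes the libraries of a group were close and the groups well apart. LAMP3, an interferon-inducible relative that marks mature dendritic cells, had 51.4, 53.6 and 49.5 CPM in overexpressing libraries, against 64.0, 66.2 and 62.8 CPM in control libraries, a log2 fold change of -0.32 (SE 0.05).

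SCARB2 (LIMP-2), the receptor that brings glucocerebrosidase to lysosomes, had 154, 174 and 165 CPM in overexpressing libraries, against 173, 177 and 181 CPM in control libraries, with 1 overexpressing library inside the control range and a log2 fold change of -0.11 (SE 0.05). MCOLN1, the calcium channel of the lysosome membrane, had 9.88, 8.89 and 9.17 CPM in overexpressing libraries, against 10.9, 12.4 and 11.6 CPM in control libraries, a log2 fold change of -0.32 (SE 0.09). Its end lies over the start of PNPLA6 on the same strand, which averaged 93.4 CPM in overexpressing libraries and 86.9 CPM in control libraries.

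TFEB had 11.8, 10 and 8.8 CPM in overexpressing libraries, against 12.7, 11.5 and 11.1 CPM in control libraries, and its groups overlapped through the first overexpressing library (log2 fold change -0.21, SE 0.11, and -0.34 without that library). TFE3 had 57.0, 56.4 and 58.3 CPM in overexpressing libraries, against 54.5, 55.0 and 56.4 CPM in control libraries, a log2 fold change of 0.05 (SE 0.05) with overlap. These are transcript levels, whereas both factors are known to be controlled mainly by phosphorylation and entry into the nucleus, which were not measured. Of 23 tested genes from a fixed list of TFEB regulators at the lysosome, 12 fell and 2 rose, 60.9% called beside 37.4% of all tested genes, with a median log2 fold change of -0.21. FNIP2 and FLCN are partners that let mTORC1 phosphorylate TFEB. FNIP2 averaged 6.55 ± 0.42 CPM in overexpressing libraries and 12.4 ± 0.727 CPM in control libraries (log2 fold change -0.92, adjusted p = 1.66e-05, edgeR). FLCN averaged 40.2 ± 0.942 CPM in overexpressing libraries and 53.6 ± 1.73 CPM in control libraries (log2 fold change -0.41, adjusted p = 4.54e-05, edgeR). MITF, another factor of the TFEB family, rose to 4 ± 0.591 CPM in overexpressing libraries, against 2.51 ± 0.272 CPM in control libraries (log2 fold change 0.66, adjusted p = 0.0115, edgeR). RHEB, the GTPase that switches on mTORC1, rose by 0.12 (adjusted p = 0.0433, edgeR).

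The 3 autophagy genes listed by name did not move alike. GABARAPL1 (chr12:10212458-10223128, plus strand, GRCh38), an ATG8 protein of the autophagosome membrane, had 101, 98.3 and 96.6 CPM in overexpressing libraries, against 65.4, 65.4 and 64.2 CPM in control libraries, a level 1.52 times that of controls (log2 fold change 0.60, SE 0.04). The groups were wide apart. MAP1LC3B (LC3B), the ATG8 protein most used as a marker of autophagosomes, had 132, 127 and 126 CPM in overexpressing libraries, against 116, 119.6 and 123 CPM in control libraries, a log2 fold change of 0.10 (SE 0.04) without overlap. SQSTM1 (p62), the receptor that brings ubiquitin-tagged cargo to ATG8 proteins, had 668, 615 and 632 CPM in overexpressing libraries, against 661, 661 and 681 CPM in control libraries, with overlap and a log2 fold change of -0.06 (SE 0.04). Of 29 other autophagy genes tested from a fixed list, 6 rose and 5 fell, 37.9% called beside 37.4% of all tested genes, with a median log2 fold change of -0.01. Among those that rose, MAP1LC3A had only 41, 15 and 14 counts in overexpressing libraries, against 0, 9 and 0 in control libraries. It passed the filter on low counts through the overexpressing libraries alone, so its call carries little weight. ULK2, a kinase that starts autophagy, averaged 28.3 ± 0.802 CPM in overexpressing libraries and 16.6 ± 0.667 CPM in control libraries, and WIPI1, which binds the growing membrane, averaged 17.1 ± 1.21 CPM in overexpressing libraries and 10.9 ± 1.02 CPM in control libraries (log2 fold changes 0.77 and 0.66, adjusted p = 2.3e-06 and 0.000133, edgeR). NCOA4, the receptor for ferritin, and VPS18, of the HOPS tether, fell by 0.32 and 0.52 on the log2 scale (adjusted p = 2.2e-05 and 5.37e-05, edgeR).

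**Figure D5:**
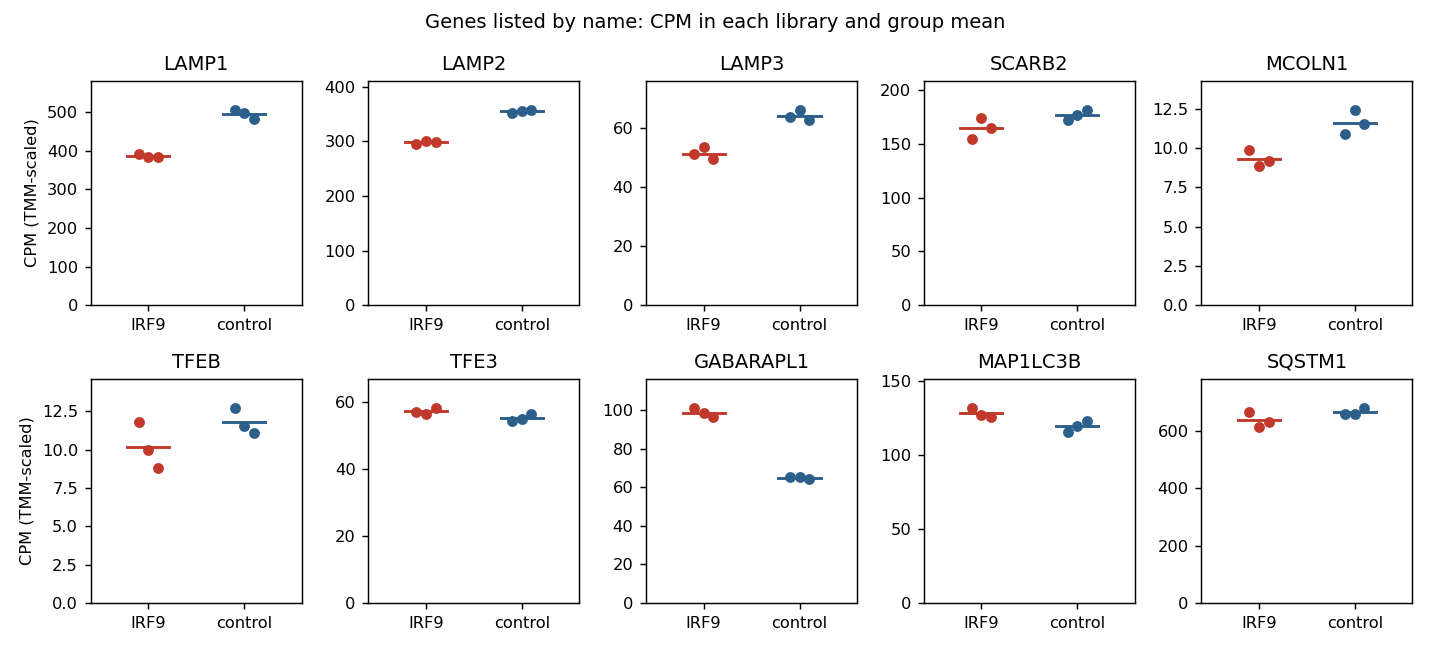
CPM (y axis, from 0) of the 10 genes listed by name in each library (points) with the group mean (lines), overexpressing in red to the left of control in blue. LAMP1, LAMP2, LAMP3 and MCOLN1 are lower in all 3 overexpressing libraries, GABARAPL1 and MAP1LC3B are higher in all 3, and SCARB2, TFEB, TFE3 and SQSTM1 overlap.

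The rest of the lysosome was read from 4 further fixed lists. Of 36 hydrolases other than cathepsins, 12 fell and 4 rose, 44.4% called, with a median log2 fold change of -0.07. GALNS, the sulfatase lacking in Morquio syndrome, averaged 35.3 ± 1.06 CPM in overexpressing libraries and 53.2 ± 1.78 CPM in control libraries, and NEU1, the sialidase held by CTSA, averaged 69.9 ± 1.85 CPM in overexpressing libraries and 91.4 ± 1.1 CPM in control libraries (adjusted p = 3.3e-06 and 2.02e-05, edgeR). SGSH, a heparan sulfatase, and GAA, the acid glucosidase of glycogen, rose by 0.64 and 0.27 on the log2 scale (adjusted p = 4.12e-05 and 0.000696, edgeR). Of 7 hydrolase activators and soluble proteins, 5 fell and 2 were not called, 71.4% called, with a median of -0.23. The ganglioside activator GM2A averaged 319 ± 7.93 CPM in overexpressing libraries and 459 ± 6.97 CPM in control libraries (log2 fold change -0.53, adjusted p = 1.9e-07, edgeR).

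Of 25 other lysosome membrane genes, 10 fell and 3 rose, 52.0% called, with a median log2 fold change of -0.06. LAPTM4A averaged 229 ± 8.81 CPM in overexpressing libraries and 301 ± 10.9 CPM in control libraries and CLN3 averaged 37.8 ± 1.51 CPM in overexpressing libraries and 55.2 ± 4.92 CPM in control libraries, both lower (adjusted p = 1.32e-05 and 5.43e-05, edgeR). LAPTM5, a lysosomal protein best known from blood cells, and NPC1, the cholesterol exporter, rose by 0.98 and 0.25 on the log2 scale (adjusted p = 5.26e-05 and 0.00207, edgeR), and LAPTM5 reached only 7.53 ± 0.286 CPM in overexpressing libraries, against 3.82 ± 0.197 CPM in control libraries. Of 11 genes of mannose 6-phosphate sorting, which tags hydrolases and cathepsins for the lysosome, 4 fell and 1 rose, 45.5% called, with a median of -0.12. GNPTAB, the enzyme that starts the tag, averaged 75.5 ± 4.22 CPM in overexpressing libraries and 111 ± 1.31 CPM in control libraries, and GGA2, a sorting adaptor, averaged 73.1 ± 1.14 CPM in overexpressing libraries and 93.1 ± 1.23 CPM in control libraries (log2 fold changes -0.55 and -0.35, adjusted p = 2.75e-06 and 3.47e-05, edgeR). SORT1, the sortilin receptor, rose by 0.32 (adjusted p = 0.00422, edgeR). These shares stand beside 37.4% of all tested genes and are not tests of the lists.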

How the data were processed

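For 6 libraries the authors deposited counts, whole numbers for each of 60612 genes, and a table of normalised values, read as FPKM from the values because the header names no unit. RNA was extracted with Trizol and libraries were made with an Illumina TruSeq kit, per the labels' protocols. The submitters' processing notes list the build GRCh38 and the tools edgeR, StringTie, HISAT2, FastQC, Trimmomatic and CASAVA 1.8. Not given in the sources used here are the annotation release, the use of strand and the treatment of multiply mapped reads.

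The deposited counts were tested with edgeR 4.0.16 (R 4.3.3): filterByExpr (minimum count 10, minimum total 15), TMM scaling, and a quasi-likelihood fit of group over all 6 libraries, with Benjamini-Hochberg adjustment over the 19034 genes tested and calls at an adjusted p under 0.05. Log2 fold changes are overexpressing minus control, and SE was derived from the test statistic. The common biological coefficient of variation was 0.135, and no 2 libraries of a group were copies (differences of 8.81 to 21.9 times counting variance). The script was tested on simulated counts. Alternatives were DESeq2 1.42.0, RLE and library-size scaling, no filter, a replicate block, leaving out each library, a 2-fold minimum, and limma 3.58.1 on log2(FPKM + 1) and log2(FPKM + 0.1), and, chosen after seeing the data, the older edgeR quasi-likelihood setting and summing each gene with those annotated over it on the same strand.

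The genes and lists were chosen with earlier results of these data known. Named in the text are IRF9, the 10 listed genes, V-ATPase and cathepsin genes called with a log2 fold change of at least 0.25 in size, the most abundant isoform of each subunit, members under the count filter, and for each list the 2 called genes of smallest p in each direction, of which 1 is not reported here. Genes named outside that rule (ATP6V0A2, ATP6V0A4, ATP6V1B1, CTSB, CTSD, CTSF, CTSH, CTSK, CTSO, CTSS, CTSV, CTSZ, ATP6AP2, RNASEK, MAP1LC3A, the relatives by name, overlapping genes and markers) were added after their values were seen. Sequences are from RefSeq (GRCh38.p14).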

Additional observations from a re-analysis of the deposited data

How the results depend on the processing

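Of 543 values of the 38 tested V-ATPase and cathepsin genes over 15 alternative fits, 454 kept their direction and their side of the threshold, 46 lost the call, 8 gained one and 35 uncalled ones changed sign. The 6 higher and 15 lower calls became 5 and 15 with DESeq2, 6 and 15 with RLE scaling, 4 and 13 with no filter, 7 and 11 with library size only, and 5 and 15 with the older edgeR setting. With log2(FPKM + 1) or log2(FPKM + 0.1), 8 were lower. In those fits 5 abundant V-ATPase sector genes were lower and 1 higher (ATP6V1F, also the 1 higher with library size only), 3 cathepsins were lower, and 2090 and 2074 of all genes were lower. With no filter 1 cathepsin was higher. A 2-fold minimum left 1 higher (ATP6V0D2, under 10 FPKM) and 0 lower, 0 abundant V-ATPase sector genes, 0 cathepsins in either direction, and 669 higher and 421 lower genes in all. Of all calls, 51.2% were higher under TMM, against 64.5% with library size only, which moved the median of all genes to 0.07, and 64.5% and 64.7% on the FPKM scales. Leaving out 1 library gave 3 to 6 higher (3 without the second control library) and 12 to 17 lower calls, with 0 higher and 7 to 10 lower among abundant sector genes, 2 to 4 higher and 0 to 1 lower among rarer ones, 1 to 2 higher and 4 to 5 lower cathepsins, and 2981 to 3539 higher and 2803 to 3373 lower over all genes. MCOLN1 summed with PNPLA6 gave 0.0607, the sign of PNPLA6, whose counts far outweigh it, so this says nothing about MCOLN1 alone. The cause of the other changes was not tested.

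With a replicate block, 6 were higher and 16 lower (3799 and 3659 of all genes). Libraries of the same number did not deviate together (correlations 0.0073, 0.002 and -0.017). With 3 libraries a group these correlations show no sign of pairing but cannot settle whether the numbers pair the libraries. With 3 libraries a group, the small differences of single subunits lie near what this depth and spread can show.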
